A study of Homo sapiens with 18 samples.

Results

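RNAseq counts were examined for 10 genes of the unfolded protein response (UPR) of the endoplasmic reticulum (ER) in SW620 cells, an established human colon cancer line. The genes were a named list of sensors and chaperones, HSPA5, HSP90B1, XBP1, ERN1, ATF6, EIF2AK3, HERPUD1, SDF2L1, PDIA4 and CALR, and they are 10 of the 26485 gene symbols counted. The rule that names them uses no measured value, though the list was drawn up with earlier results of these data known, and each had counts in all 18 libraries. The 18 libraries form 6 groups of 3. Cells received either scramble siRNA or siRNA against Lonp1 (siLonp1), the mitochondrial matrix protease, and were harvested from 37 °C (Ctrl), directly after heat shock at 42 °C lasting 1 h (HS), or after the same heat shock with 1 h of recovery at 37 °C (HS+REC). All groups, Ctrl scramble included, had been transfected with siRNA, so no library comes from untransfected cells. SW620 is a single line, and the scramble cells stand in for cells with normal LONP1.

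The UPR matches the folding capacity of the ER to the load of new secretory and membrane proteins. It starts from membrane sensors: IRE1, encoded by ERN1, which cuts XBP1 mRNA so that it encodes an active transcription factor, PERK, encoded by EIF2AK3, which phosphorylates eIF2alpha and slows translation, and ATF6, which is cleaved in the Golgi to release a transcription factor. The ER chaperone BiP, encoded by HSPA5, binds the sensors at rest and is itself a classic target of the response. Heat shock is better known for the cytosolic response driven by HSF1. Gene counts measure the RNA of a gene as a whole. They do not show the splicing of XBP1, the cleavage of ATF6 or the phosphorylation of IRE1 and PERK.

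The libraries held between 30815860 and 47279297 counts (median 40847024.5). Levels are given as CPM, counts scaled to library size and by the TMM factors of edgeR, and mean ± SD is over n = 3 libraries. Every difference given with an SE is a log2 fold change, or for interactions a difference between log2 fold changes. LONP1 stood at 221 ± 5.56 CPM in Ctrl scramble and at 20.4 ± 1.75 CPM in Ctrl siLonp1, and after heat at 214 against 11.7 CPM in HS and 218 against 27.2 CPM in HS+REC, so the silenced gene was low in every siLonp1 group. The depth of silencing differed between conditions, at -3.43 (SE 0.078) in Ctrl, -4.19 (SE 0.082) in HS and -3.01 (SE 0.076) in HS+REC. LONP1 itself passed in the interaction with HS, at -0.76 (SE 0.11, adjusted p = 0.00047). It also passed with HS+REC, at 0.43 (SE 0.10, adjusted p = 0.032), a call lost on leaving out any of 9 libraries. Comparisons of siLonp1 across conditions were thus not made at equal silencing. All 6 colon epithelial markers examined (EPCAM, KRT8, KRT18, CDH1, CDX2 and VIL1) passed the filter on low counts, and summed to 7902 to 10860 CPM per library. Of 5 leukocyte and 3 endothelial markers, 2 and 1 passed, with sums of 16.2 to 21.5 and 0.631 to 1.53 CPM. Of 5 fibroblast markers 2 passed, and their sum over the list rose with heat from 8.98 to 11.3 CPM in Ctrl scramble to 30.7 to 31.8 CPM in HS+REC scramble. COL1A1 carried nearly all of it, whereas COL3A1 was at 0 in every library, COL1A2 had at most 2 counts and DCN at most 7.

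Per kilobase of the canonical transcript, the 10 genes spanned more than 2 orders of magnitude in Ctrl scramble. CALR, the lectin chaperone of the ER lumen, was highest at 384 CPM per kb, followed by HSP90B1, the ER form of HSP90, at 258 and HSPA5 at 183. PDIA4, a disulfide isomerase, had 134 and XBP1 72.9 CPM per kb. SDF2L1, an ER protein that works with BiP and its J-domain partners, stood at 35.1 CPM per kb, and HERPUD1, a membrane protein of ER-associated degradation (ERAD), at 24.1. The 3 sensors were lowest, with 7.10 CPM per kb for ATF6, 5.74 for EIF2AK3 and 1.08 for ERN1. The gap between each gene and the next in this order exceeded the SD of both. ERN1 was thus the scarcest of the list, and its 3 Ctrl scramble libraries held 343, 395 and 369 counts.

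The genes lie on 9 chromosomes of hg38. In RefSeq (GRCh38.p14) HSPA5 spans chr9:125234853-125241343, HERPUD1 chr16:56932142-56944864, XBP1 chr22:28794560-28800569, ERN1 chr17:64039142-64130144 and EIF2AK3 chr2:88556741-88628145. SDF2L1 shares chromosome 22 with XBP1. The counts come from exons, and some exons overlap other genes. In GENCODE, exons of HSP90B1 share 131 bases with MIR3652 on the same strand and 138 with UQCC6 on the other. Those of ERN1, EIF2AK3 and CALR share 102, 781 and 164 bases with unnamed antisense transcripts. The strand setting of the counting is not given in the sources used here, so reads of such a pair may not be separated.

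The promoters of several of these genes carry the ER stress response elements through which ATF6 and XBP1 are known to act. They are shown because they are the sequence feature that links the chaperones to the sensors. ERSE was searched as CCAAT and CCACG with 9 bases between them, and ERSE-II as ATTGG and CCACG with 1 base between them, on both strands, in the 250 bases before each RefSeq start. A match describes the letters and is not evidence of binding. ERSE was found in 26 of 35116 promoters (0.074%), or 25 of 27305 genes (0.0916%), and 4 of the 10 genes had it. The 10 were chosen as genes of the UPR, so this count is not a test of enrichment. ERSE-II was found in 18 promoters (0.0513%), or 0.0659% of genes, and HERPUD1 and SDF2L1 had it. Below, each sequence is the 250 bases before the start, 5′ to 3′ on the strand of the gene, from RefSeq GRCh38.p14, with the matched letters in capitals. HSPA5 is on the minus strand (chr9:125241344-125241593), HSP90B1 on the plus strand (chr12:103930160-103930409), XBP1 on the minus strand (chr22:28800570-28800819) and HERPUD1 on the plus strand (chr16:56931892-56932141).
HSPA5: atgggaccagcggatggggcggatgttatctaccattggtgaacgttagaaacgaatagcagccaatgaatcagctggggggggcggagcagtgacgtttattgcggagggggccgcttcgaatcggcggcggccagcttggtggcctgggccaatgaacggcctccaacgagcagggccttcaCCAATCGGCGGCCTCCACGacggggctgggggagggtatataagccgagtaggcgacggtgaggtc
HSP90B1: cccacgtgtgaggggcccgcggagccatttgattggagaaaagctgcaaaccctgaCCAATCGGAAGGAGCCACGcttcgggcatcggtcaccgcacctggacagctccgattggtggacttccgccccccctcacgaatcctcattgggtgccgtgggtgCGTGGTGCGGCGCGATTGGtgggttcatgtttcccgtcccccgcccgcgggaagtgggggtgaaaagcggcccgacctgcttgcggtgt
XBP1: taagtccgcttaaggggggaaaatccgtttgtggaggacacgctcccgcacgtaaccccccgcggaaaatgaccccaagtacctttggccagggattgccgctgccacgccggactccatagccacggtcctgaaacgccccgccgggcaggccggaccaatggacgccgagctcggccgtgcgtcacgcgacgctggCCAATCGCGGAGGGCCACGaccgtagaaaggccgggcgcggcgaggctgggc
HERPUD1: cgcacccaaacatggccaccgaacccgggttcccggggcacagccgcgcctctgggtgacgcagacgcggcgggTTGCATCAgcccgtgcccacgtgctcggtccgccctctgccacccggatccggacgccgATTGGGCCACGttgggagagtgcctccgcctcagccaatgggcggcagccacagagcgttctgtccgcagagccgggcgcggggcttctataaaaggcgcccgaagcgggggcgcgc
The match lies from -66 to -48 in HSPA5 and from -52 to -34 in XBP1, counted from the base before the start. HSP90B1 has one match from -194 to -176 and another on the opposite strand from -89 to -71, whose capitals read CGTGG first. In HERPUD1 the ERSE-II match runs from -117 to -107, and the capitals further upstream, from -176 to -169, are TTGCATCA, a core of the amino acid response element that ATF4 can bind, which 0.772% of promoters hold. CALR matched ERSE on the opposite strand from -225 to -207, as CCAATgatggtcgaCCACG. SDF2L1 matched ERSE-II on the opposite strand from -188 to -178. ERN1, ATF6, EIF2AK3 and PDIA4 matched neither element in this window, and a second annotated start of XBP1 did not either. For EIF2AK3 the window searched, chr2:88627465-88627714, lies inside the gene span given above. The bases before the outer end of that span were not searched. TGACGTGG (UPRE), TGACGTCA (CRE) and a heat shock element of GAA, TTC and GAA with 2 bases after each of the first blocks were in 0.612%, 1.65% and 0.441% of promoters and in none of the 10.

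**Figure D1:**
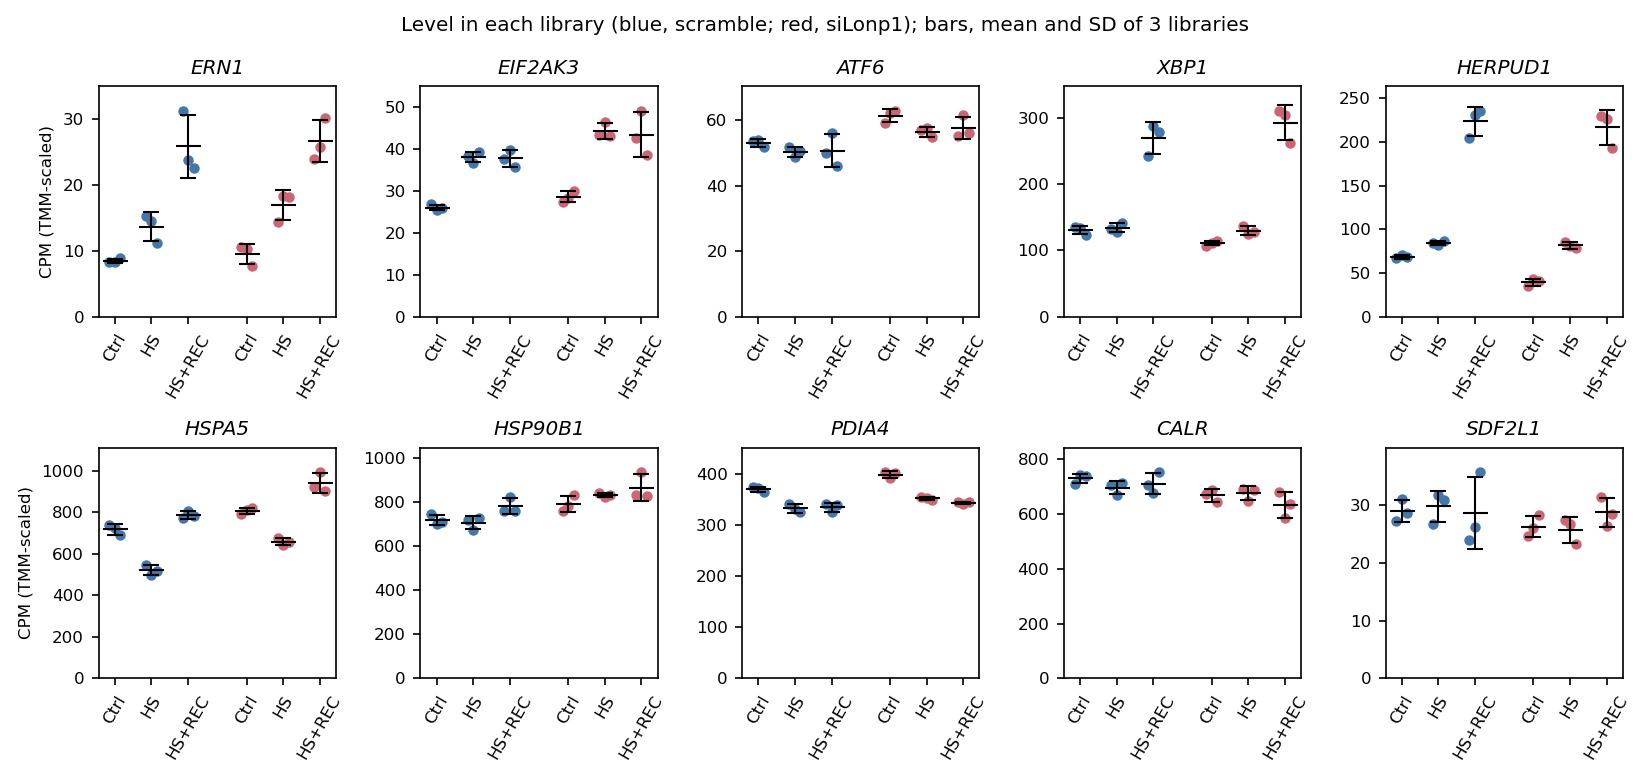
CPM of each of the 10 genes in every library (points), by condition, in scramble (blue) and siLonp1 (red) cells, with the mean and SD of 3 libraries (black bars) and each vertical axis starting at 0. HERPUD1, XBP1 and ERN1 are highest in HS+REC in both arms, HSPA5 dips in HS, and ATF6, HSP90B1, PDIA4, CALR and SDF2L1 vary little between conditions.

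The first question was what 1 h at 42 °C did to these genes. In these bulk libraries fewer cells expressing a gene and less of its RNA per cell cannot be told apart. In scramble cells 3 of the 10 rose (ERN1, EIF2AK3 and HERPUD1) and 2 fell (HSPA5 and PDIA4) at an FDR of at most 0.05. Over all 12832 genes tested, 18.6% were higher and 17.3% lower, and the count of 5 of 10 does not by itself set the list apart. None of the 10 rose by more than 2-fold, which 2.94% of all genes did. In siLonp1 cells 4 rose (the same 3 and XBP1) and the same 2 fell, where 20.2% of all genes were higher and 22.1% lower. Only HERPUD1 passed 2-fold there, against 3.42% of all genes. The median log2 fold change of the 10 was 0.0058 in scramble and 0.043 in siLonp1 cells, and that of all genes was -0.014 and 0.00039.

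The second question was what followed in the 1 h of recovery. Against HS, 4 of the 10 rose in HS+REC in scramble cells, HERPUD1, XBP1, ERN1 and HSPA5, and none fell, with 14.2% of all genes higher and 12.7% lower. HERPUD1 and XBP1 more than doubled, as did 1.06% of all genes. The same 4 rose in siLonp1 cells, again with none lower, where 16.3% of all genes were higher and 15.6% lower. The 2 that passed 2-fold were again HERPUD1 and XBP1, against a background of 1.83%. The 6 others did not pass in either arm.

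Against Ctrl, HS+REC left 4 genes higher (HERPUD1, ERN1, XBP1 and EIF2AK3) and PDIA4 lower in scramble cells, with 21.8% of all genes higher and 20.5% lower. HERPUD1, ERN1 and XBP1 were each more than 2-fold higher, as were 3.78% of all genes. In siLonp1 cells HSPA5 joined these 4, PDIA4 was again lower, and 24.6% of all genes were higher and 26.6% lower. With scaling by library size only, the split of 5 higher and 1 lower became 5 higher and 3 lower. Shares of all genes under that scaling are not given. The same 3 genes passed 2-fold, against 4.51% of all genes. The contrasts of HS and of HS+REC against Ctrl share the Ctrl libraries, so they are not independent of each other. COL1A1 rose over the same steps, while COL3A1 stayed at 0 and COL1A2 and DCN near 0. Of the 6 colon epithelial markers, none changed in HS in scramble cells, and 2 were higher (KRT8 and KRT18) and 1 lower (CDX2, at -0.66 (SE 0.10)) in siLonp1 cells. In HS+REC against Ctrl, CDX2, CDH1 and VIL1 were lower in both arms, from -0.18 to -0.25 in scramble and from -0.30 to -0.40 in siLonp1 cells. Against HS, 1 was higher and 1 lower in scramble cells and 4 were lower in siLonp1 cells. The part of these markers in the changes of the 10 genes was not tested.

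**Figure D2:**
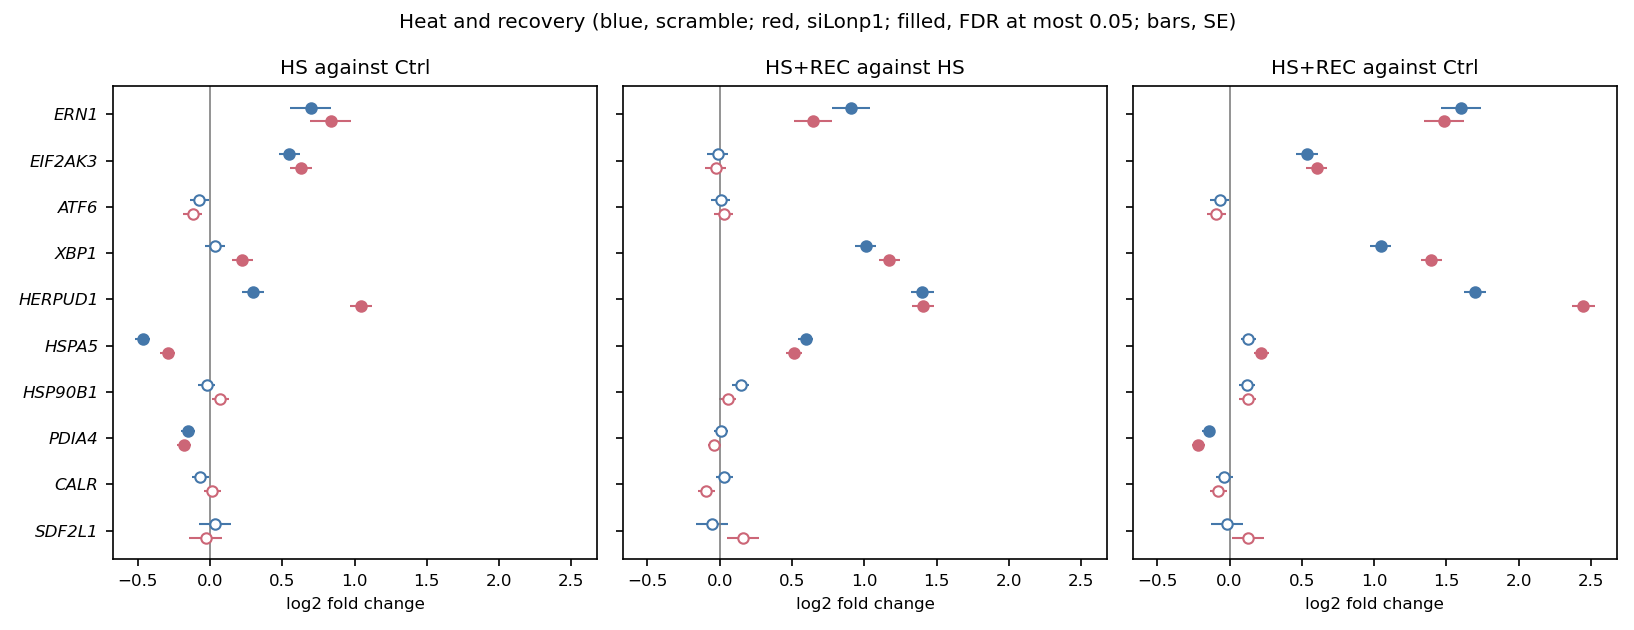
log2 fold change (horizontal axis, with SE bars) of each gene for HS against Ctrl, HS+REC against HS and HS+REC against Ctrl, in scramble (blue) and siLonp1 (red) cells. Filled points pass an FDR of 0.05. HERPUD1, XBP1 and ERN1 lie furthest to the right in HS+REC against Ctrl, at 1.70, 1.05 and 1.60 in scramble cells.

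Among the sensors, ERN1 rose at both steps. In scramble cells it stood at 8.34, 8.31 and 8.86 CPM in Ctrl, 15.4, 14.5 and 11.2 CPM in HS and 31.3, 23.8 and 22.5 CPM in HS+REC. No library of one condition overlapped another, and the spread was widest in HS+REC. The log2 fold change was 0.70 (SE 0.14, adjusted p = 0.00044) in HS and 1.60 (SE 0.14, adjusted p = 1.5e-09) in HS+REC, a 3.04-fold level. In siLonp1 cells the libraries read 10.6, 10.3 and 7.74 CPM in Ctrl, 14.4, 18.3 and 18.2 CPM in HS and 24.0, 25.8 and 30.1 CPM in HS+REC. The conditions again did not overlap, with log2 fold changes of 0.83 (SE 0.14) in HS and 1.48 (SE 0.14) in HS+REC.

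EIF2AK3 rose in HS and went no further. In scramble cells it read 26.8, 25.5 and 25.9 CPM in Ctrl, 38.4, 36.8 and 39.3 CPM in HS and 37.7, 39.8 and 35.8 CPM in HS+REC. All heated libraries lay above all Ctrl libraries, while HS and HS+REC overlapped. The rise over Ctrl was 0.55 (SE 0.074, adjusted p = 2.7e-06) in HS, and the step from HS to HS+REC was -0.013 (SE 0.073), which did not pass. In siLonp1 cells the values were 27.5, 28.4 and 30.0 CPM in Ctrl, 43.3, 46.5 and 43.1 CPM in HS and 42.7, 49.2 and 38.6 CPM in HS+REC. The heated libraries again lay above the Ctrl libraries, with a rise of 0.63 (SE 0.074, adjusted p = 2.3e-07) in HS. ATF6 did not pass in any heat comparison, but with library size only it was called lower in siLonp1 cells in HS (adjusted p = 0.043) and HS+REC (adjusted p = 0.034). It stayed within 46.0 to 62.9 CPM over all 18 libraries, with log2 fold changes of -0.076 (SE 0.066) in HS and -0.068 (SE 0.065) in HS+REC in scramble cells.

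XBP1, the transcription factor gene downstream of IRE1, rose mainly in recovery. The scramble libraries held 135, 133 and 124 CPM in Ctrl, 132, 128 and 141 CPM in HS and 242, 288 and 279 CPM in HS+REC. Ctrl and HS overlapped, and HS+REC was about 2-fold above both. The log2 fold change from HS to HS+REC was 1.01 (SE 0.071, adjusted p = 1.9e-10), whereas that from Ctrl to HS was 0.035 (SE 0.071). In siLonp1 cells XBP1 read 107, 111 and 114 CPM in Ctrl, 137, 125 and 127 CPM in HS and 310.3, 304 and 262 CPM in HS+REC. Here the HS libraries were all above the Ctrl libraries, by 0.22 (SE 0.071, adjusted p = 0.014), a call that was lost when replicate 1 of Ctrl siLonp1 or of HS siLonp1 was left out (adjusted p at most 0.073). The step from HS to HS+REC was 1.17 (SE 0.071).

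HERPUD1 had the widest range of the 10 genes, with group means that spanned 2.49 in log2 CPM. The scramble libraries held 67.0, 71.2 and 68.0 CPM in Ctrl, 84.8, 81.8 and 87.0 CPM in HS and 204, 231 and 236 CPM in HS+REC. The 3 conditions did not overlap, and most of the rise fell in recovery. HS added 0.30 (SE 0.076, adjusted p = 0.0036) and recovery a further 1.40 (SE 0.076, adjusted p = 2.6e-12), so that HS+REC reached 3.25-fold of Ctrl. In siLonp1 cells the libraries held 34.9, 42.8 and 41.3 CPM in Ctrl, 85.8, 80.8 and 78.6 CPM in HS and 229.7, 227 and 193 CPM in HS+REC. From this lower start HS added 1.04 (SE 0.078, adjusted p = 1.6e-10) and recovery 1.41 (SE 0.076, adjusted p = 1.6e-12), and HS+REC reached 5.46-fold of Ctrl. These calls held when any library was left out.

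HSPA5 moved the other way in HS and returned in recovery. In scramble cells it read 742, 726 and 689.7 CPM in Ctrl, 547, 499.7 and 515 CPM in HS and 771, 808 and 780.4 CPM in HS+REC. Every HS library was under every Ctrl library, and every HS+REC library was above every Ctrl library. The change in HS was -0.47 (SE 0.053, adjusted p = 2.1e-07) and the rise from HS to HS+REC 0.59 (SE 0.053, adjusted p = 7.9e-09), while the difference of 0.13 (SE 0.053) between HS+REC and Ctrl did not pass (adjusted p = 0.053), though it did with DESeq2 and without replicate 3 of HS scramble or replicate 1 or 2 of HS+REC siLonp1. In siLonp1 cells it read 793, 812 and 821 CPM in Ctrl, 675, 645 and 659 CPM in HS and 924, 994 and 905 CPM in HS+REC. The same course was seen at higher levels, with -0.29 (SE 0.053, adjusted p = 7.9e-05) in HS and 0.22 (SE 0.053, adjusted p = 0.0013) in HS+REC against Ctrl. The difference between the arms in the HS effect on HSPA5 was 0.17 (SE 0.075) and did not pass (adjusted p = 0.27).

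The other folding genes among the 10 changed little with heat. In scramble cells PDIA4 fell by 10.1% in HS. Its libraries lay at 364 to 374 CPM in Ctrl, at 325 to 342 CPM in HS and at 325 to 340.1 CPM in HS+REC, so both heated groups were under Ctrl. The log2 fold changes were -0.15 (SE 0.046, adjusted p = 0.012) in HS and -0.14 (SE 0.046, adjusted p = 0.015) in HS+REC. The first call was lost without replicate 3 of HS scramble (adjusted p = 0.087), and the second without replicate 1 of Ctrl scramble or replicate 2 of HS+REC scramble (adjusted p at most 0.060). Without the filter on low counts both calls were lost (adjusted p = 0.093 and at most 0.086), and the second also with only the groups compared. In siLonp1 cells PDIA4 was also lower, at -0.18 (SE 0.046) in HS and -0.22 (SE 0.046) in HS+REC. HSP90B1, CALR and SDF2L1 did not pass in any heat comparison. With library size only CALR was called lower in HS+REC in siLonp1 cells (adjusted p = 0.022), and DESeq2 called HSP90B1 higher there. HSP90B1 also passed there without replicate 3 of Ctrl siLonp1, replicate 3 of HS scramble or replicate 1 or 3 of HS+REC siLonp1, and for HS+REC against HS in scramble cells without replicate 2 of HS+REC siLonp1. Over all 18 libraries HSP90B1 ran from 674 to 936 CPM, CALR from 585 to 753 CPM and SDF2L1 from 23.2 to 35.6 CPM. SDF2L1, with the shallowest counts of these, also had the widest spread relative to its mean, 28.6 ± 6.19 CPM in HS+REC scramble. Of the 4 genes with an ERSE match, XBP1 rose in recovery, HSPA5 fell in HS and returned, and HSP90B1 and CALR did not pass.

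Silencing of Lonp1 was compared within each condition. At 37 °C, 3 of the 10 were higher in siLonp1 than in scramble cells (ATF6, HSPA5 and HSP90B1) and 2 lower (HERPUD1 and XBP1), with 26.3% of all genes higher and 22.9% lower. In HS 4 were higher (HSPA5, HSP90B1, EIF2AK3 and ATF6) and none lower, against 28.1% and 26.7%. In HS+REC the same 4 were higher and CALR lower, against 26.8% and 27.3%. None of these differences reached 2-fold. The calls depended on scaling. By library size only the split of higher and lower was 0 and 3 at 37 °C, 2 and 2 in HS and 1 and 1 in HS+REC. That scaling moved the median of all genes by -0.074, -0.097 and -0.071. Shares of all genes under it are not given, so these splits are not set against all genes. Marker genes moved with silencing too. At 37 °C the intestinal factor CDX2 was lower, at -0.90 (SE 0.089), and E-cadherin (CDH1) higher by 0.62 (SE 0.059). Of the leukocyte markers that passed the filter, LYZ was lower, at -1.52 (SE 0.12), and CD68 higher by 0.35 (SE 0.10). Of the fibroblast markers, PDGFRB was higher by 1.17 (SE 0.19) at 2.63 CPM in siLonp1 and 1.17 CPM in scramble cells, while COL1A1 was at 0.078 (SE 0.11), which did not pass. All 5 that changed at 37 °C also changed the same way in HS and HS+REC. Of the 6 colon epithelial markers, 4 were higher and 1 lower in HS, and 1 higher and 2 lower in HS+REC. The part of all these markers in the differences between the arms was not tested.

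**Figure D3:**
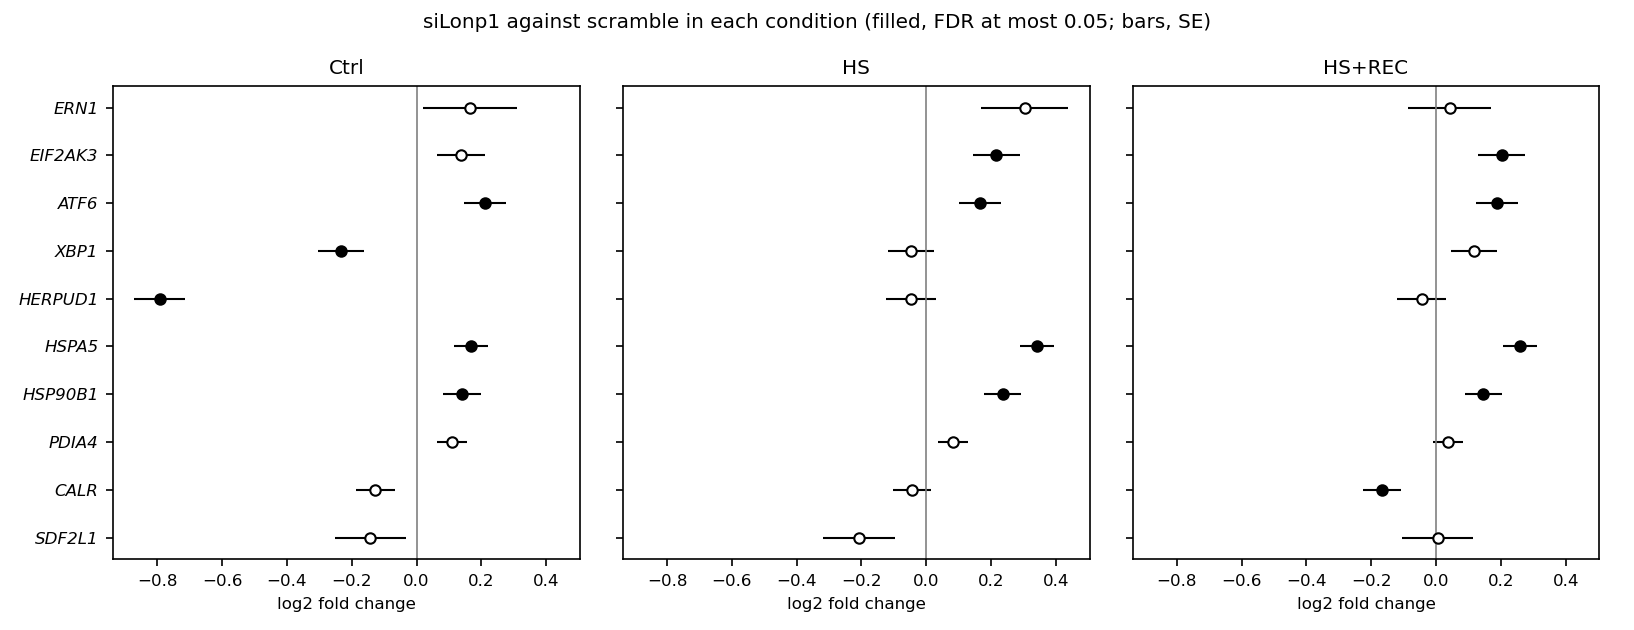
log2 fold change of siLonp1 against scramble (horizontal axis, with SE bars) for each gene in Ctrl, HS and HS+REC, with filled points at an FDR of at most 0.05. HERPUD1 stands apart in Ctrl, at -0.79, and lies at -0.047 in HS and -0.045 in HS+REC.

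Of the 10 genes over the 3 conditions, HERPUD1 at 37 °C had the largest difference, -0.79 (SE 0.078, adjusted p = 2.1e-08). Its level decreased by 42.3% with silencing. The 3 siLonp1 libraries, 34.9 to 42.8 CPM, were all under the 3 scramble libraries, 67.0 to 71.2 CPM. After heat the arms overlapped, with 84.5 ± 2.61 against 81.8 ± 3.70 CPM in HS and 223 ± 17.0 against 217 ± 20.1 CPM in HS+REC. The differences of -0.047 (SE 0.076) and -0.045 (SE 0.074) did not pass. Tested as an interaction, the HS effect on HERPUD1 was larger in siLonp1 than in scramble cells by 0.75 (SE 0.11, adjusted p = 0.00053), and the HS+REC effect by 0.75 (SE 0.11, adjusted p = 0.0014). HERPUD1 was the only one of the 10 to pass in either interaction, where 0.475% of all genes were higher and 1.39% lower for HS, and 0.686% and 0.896% for HS+REC. With DESeq2 or without the filter on low counts, XBP1 passed as well in the interaction with HS+REC.

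XBP1 was also lower at 37 °C in siLonp1 cells, at 107 to 114 against 124 to 135 CPM, with a difference of -0.23 (SE 0.071, adjusted p = 0.0090). The arms overlapped after heat, and the siLonp1 difference was -0.046 (SE 0.071) in HS and 0.12 (SE 0.070) in HS+REC, of which the second passed without replicate 3 of HS+REC siLonp1 (adjusted p = 0.031). The interaction with HS+REC was 0.35 (SE 0.10), with an adjusted p of 0.079. It passed when replicate 2 of HS+REC scramble or replicate 3 of HS+REC siLonp1 was left out. ERN1 did not pass in any condition, with 0.16 (SE 0.15) in Ctrl, 0.30 (SE 0.14) in HS and 0.042 (SE 0.13) in HS+REC. The HS difference (adjusted p = 0.062) passed with DESeq2, without the filter on low counts (adjusted p = 0.0052), and without replicate 3 of Ctrl siLonp1, replicate 1 of HS scramble, replicate 1 of HS siLonp1 or replicate 1 or 3 of HS+REC scramble.

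HSPA5 was higher in siLonp1 cells in every condition, with no overlap between the arms. The difference was 0.17 (SE 0.053, adjusted p = 0.011) in Ctrl, 0.34 (SE 0.053, adjusted p = 1.1e-05) in HS and 0.26 (SE 0.053, adjusted p = 0.00026) in HS+REC. The call in Ctrl was lost without replicate 3 of Ctrl scramble (adjusted p = 0.069) and with scaling by library size only (adjusted p = 0.13). HSP90B1 was higher by 0.24 (SE 0.058, adjusted p = 0.0015) in HS, at 823 to 840.3 against 674 to 729 CPM. Its differences of 0.14 (SE 0.058) in Ctrl and 0.15 (SE 0.058) in HS+REC passed narrowly, and each was lost with scaling by library size only and without some of the libraries: in Ctrl, 10 of the 18 did so when left out, and in HS+REC replicates 1 and 3 of scramble and replicate 2 of siLonp1. The Ctrl call was also lost with RLE factors and with the replicate block, and the HS+REC call without the filter on low counts and with only the groups compared.

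ATF6 was higher in siLonp1 cells by 0.21 (SE 0.065, adjusted p = 0.010) in Ctrl, 0.17 (SE 0.066, adjusted p = 0.036) in HS and 0.19 (SE 0.065, adjusted p = 0.019) in HS+REC. The arms did not overlap in Ctrl, at 51.7 to 53.9 against 59.2 to 62.9 CPM, or in HS. The HS call was lost without replicate 2 or 3 of HS scramble or replicate 1 or 2 of HS siLonp1, and the HS+REC call without replicate 1 or 3 of scramble or replicate 2 of siLonp1. EIF2AK3 differed by 0.14 (SE 0.075) in Ctrl, which did not pass, by 0.22 (SE 0.073, adjusted p = 0.015) in HS and by 0.20 (SE 0.072, adjusted p = 0.022) in HS+REC. Both calls were lost without replicate 2 of siLonp1, and also without replicate 2 of HS scramble or replicate 3 of HS+REC scramble. CALR was lower, at -0.17 (SE 0.059, adjusted p = 0.021) in HS+REC, a call lost without replicate 3 of HS+REC scramble or replicate 2 of HS+REC siLonp1. With scaling by library size only, ATF6 lost its call in all 3 conditions and EIF2AK3 in HS and HS+REC. With only the groups compared, ATF6, EIF2AK3 and CALR lost theirs in HS+REC. PDIA4 and SDF2L1 did not pass in any condition, though PDIA4 passed in Ctrl with DESeq2 and without replicate 3 of HS scramble or replicate 2 of HS+REC siLonp1. SDF2L1 passed in Ctrl with only the groups compared, and in HS with library size only and without replicate 3 of HS+REC scramble. CALR passed as lower with library size only in Ctrl and HS, and in Ctrl also with DESeq2 and with only the groups compared.

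The wider pathway was followed through 58 genes in 5 lists, all of which passed the filter on low counts. Of 11 cofactors of BiP, none was higher, 3 were lower (SEC63, SIL1 and HYOU1) and 8 did not pass in HS in scramble cells. Over all genes 18.6% were higher and 17.3% lower, so these counts do not by themselves set the list apart. Of these 3 only SEC63 passed when replicate 1 or 2 of Ctrl scramble or any HS scramble library was left out, or without the filter on low counts. HYOU1 was also lost without replicate 1 of HS+REC siLonp1, and SIL1 without that library, without replicate 3 of HS siLonp1 and with only the groups compared. In HS+REC 3 were higher and 2 lower, against 21.8% and 20.5% of all genes. DNAJB9, a J-domain cofactor of BiP and a known target of IRE1 and XBP1, rose most there, from 6.48 ± 0.524 CPM in Ctrl to 21.1 ± 1.66 CPM, by 1.70 (SE 0.11, adjusted p = 5.8e-12). It was at 7.42 ± 0.934 CPM in HS, so its rise, like that of XBP1, fell in recovery. FICD, which modifies BiP, rose by 0.73 (SE 0.17) in HS+REC, and SEC63, a partner of the ER translocon, was lower, at -0.32 (SE 0.073).

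Of 11 genes of disulfide formation and lectin folding, 1 was lower in HS, ERO1A, an ER oxidase, at -0.35 (SE 0.065). In HS+REC its paralog ERO1B was higher by 0.57 (SE 0.10) and ERO1A still lower, at -0.26 (SE 0.065), with 9 of 11 not passing, where 21.8% of all genes were higher and 20.5% lower. Of 16 ERAD genes, 1 was higher and 8 lower in HS, against the same 18.6% and 17.3%. HERPUD2, the paralog of HERPUD1, rose by 0.62 (SE 0.11), while the lectin ERLEC1 fell by 0.57 (SE 0.072) and SYVN1, the ubiquitin ligase HRD1, fell by 0.47 (SE 0.10). Over the 5 lists HS+REC scramble had 15 higher and 11 lower genes, which became 14 and 18 with scaling by library size only. Shares of all genes with that scaling are not given here. In HS+REC 3 ERAD genes were higher and 5 lower. The mannosidase-like EDEM3 rose by 0.62 (SE 0.079) and EDEM1 fell by 0.48 (SE 0.072), and DERL3, at 0.810 CPM in Ctrl, was called higher by 0.72 (SE 0.21). DERL3 was above 1 CPM only in the 3 HS+REC scramble libraries, at 1.19 to 1.43 CPM. It passed the low-count filter only through the group in which it was called higher. Its call and its place in these counts are therefore no support for a rise. The median of the 16 was 0.016 in HS+REC, and their counts are to be read against 21.8% of all genes higher and 20.5% lower.

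Among 11 partners of the sensors, 1 rose and 3 fell in HS in scramble cells, against 18.6% and 17.3% of all genes. NFYA, a subunit of the factor that binds the CCAAT block of ERSE, rose by 0.31 (SE 0.063), and WFS1, an ER membrane protein that is mutated in Wolfram syndrome, fell by 0.42 (SE 0.071). MBTPS2, the site-2 protease that cleaves ATF6, fell by 0.28 (SE 0.078). In HS+REC TRAF2, an adaptor recruited by IRE1, was higher by 0.83 (SE 0.084) and 3 were lower, among them WFS1, at -0.72 (SE 0.072), and MBTPS2, at -0.26 (SE 0.078), a call lost without replicate 3 of HS+REC scramble (adjusted p = 0.075). Over all genes 21.8% were higher and 20.5% lower in HS+REC.

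Of the 5 ER lists, that of genes downstream of PERK and ATF4 had the largest share of higher genes. In HS 7 of 9 rose and 1 fell in scramble cells, where 18.6% of all genes were higher, with a median of 1.02 against -0.014 over all genes, and in HS+REC 7 of 9 rose, with a median of 1.64, where 21.8% of all genes were higher. CHAC1, a glutathione-degrading enzyme, went from 6.33 ± 0.390 CPM in Ctrl to 59.6 ± 4.91 in HS and 138 ± 14.7 in HS+REC. SESN2 was higher by 1.99 (SE 0.11) in HS and 3.48 (SE 0.11) in HS+REC, and ATF3, a transcription factor of many stresses, by 1.93 (SE 0.18) and 2.41 (SE 0.17). ATF4 and its targets are also reached through eIF2alpha kinases other than PERK. In siLonp1 cells the counts of higher and lower genes in HS were 8 and 0 for PERK outputs, 0 and 2 for BiP cofactors, 0 and 4 for disulfide and lectin genes, 1 and 9 for ERAD genes and 1 and 5 for sensor partners, against 20.2% and 22.1% of all genes. In HS+REC they were 8 and 0, 2 and 4, 1 and 2, 1 and 3, and 2 and 5, in the same order, against 24.6% and 26.6% of all genes.

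**Figure D4:**
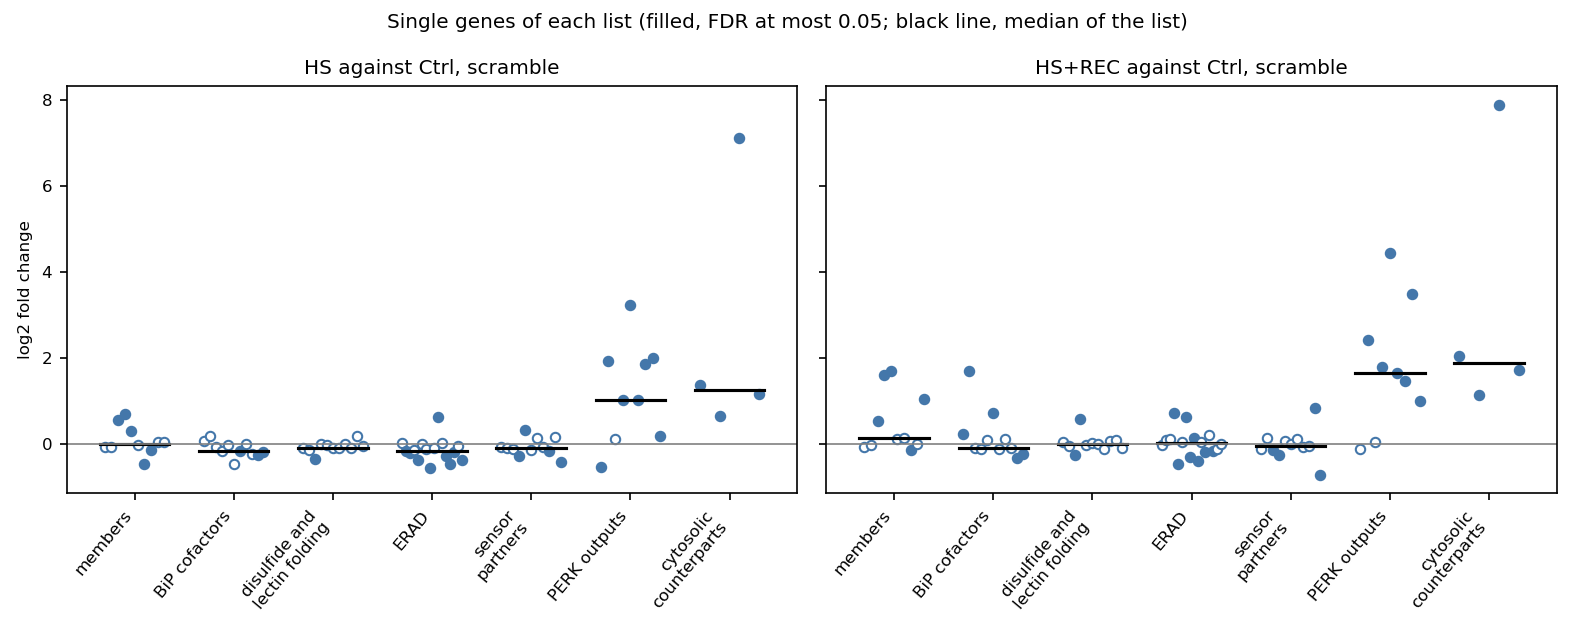
log2 fold change (vertical axis) of single genes in HS and in HS+REC against Ctrl in scramble cells, for the 10 genes (members), 5 lists of the ER pathway and 4 cytosolic counterparts of BiP and HSP90B1. Filled points pass an FDR of 0.05 and black lines are list medians, which lie near 0 for the 10 genes and for 4 of the ER lists, and at 1.02 and 1.64 for the PERK outputs.

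The cytosolic relatives of BiP and HSP90B1 rose at both times. HSPA8, HSPA1A, HSP90AA1 and HSP90AB1 were higher in both HS and HS+REC in both arms. HSP90AA1 went from 2181 ± 25.9 CPM in Ctrl scramble to 5609 ± 259.7 in HS and 9001 ± 846 in HS+REC, by 1.36 (SE 0.076) and 2.05 (SE 0.078). HSP90AB1 rose by 0.64 (SE 0.053) in HS and HSPA8 by 1.16 (SE 0.074), whereas HSP90B1 differed by -0.024 (SE 0.058) and HSPA5 fell. HSPA1A rose by 7.11 (SE 0.11), from 14.3 ± 0.984 CPM, but has a near-identical copy, HSPA1B, so its own level is uncertain.

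Under silencing at 37 °C, 25 of the 58 pathway genes were higher and 6 lower, against 26.3% and 22.9% of all genes, a split that became 15 and 11 with scaling by library size only. Shares of all genes in this paragraph are those with TMM factors, and those with library size only are not given. The latter scaling moved the median of all genes by -0.074 at 37 °C and by -0.097 in HS. BiP cofactors had 7 of 11 higher and none lower. SEC63 was higher by 0.74 (SE 0.073), HYOU1, a nucleotide exchange factor of BiP, by 0.43 (SE 0.058) and DNAJB11 by 0.27 (SE 0.054), with HSPA5 itself at 0.17. Of the ERAD genes 9 of 16 were higher and 1 lower, with HERPUD2 at 0.42 (SE 0.11), VIMP at 0.31 (SE 0.075) and SEL1L, the partner of SYVN1, at 0.27 (SE 0.069), against -0.79 for HERPUD1. Of the sensor partners 4 of 11 were higher and none lower, among them NFYA by 0.63 (SE 0.063), MBTPS1, the site-1 protease that cleaves ATF6, by 0.49 (SE 0.050) and WFS1 by 0.30 (SE 0.071). Disulfide and lectin genes had 3 of 11 higher, ERO1B and ERO1A among them, and PDIA5 lower, at -0.25 (SE 0.059). With library size only ERO1B (adjusted p = 0.067) and ERO1A (adjusted p = 0.15) lost their calls, as did ERO1B without replicate 3 of Ctrl scramble and ERO1A without replicate 2 of Ctrl scramble or replicate 2 or 3 of Ctrl siLonp1. The PERK outputs were split at 37 °C, with 2 of 9 higher and 4 lower. SESN2 was lower, at -1.02 (SE 0.12) and CHAC1 at -0.64 (SE 0.16), while ASNS, asparagine synthetase, was higher by 0.92 (SE 0.12). Of the 4 cytosolic counterparts, HSPA1A was higher and the others did not pass, though HSPA8 passed as higher without the filter on low counts and with only the groups compared, and HSP90AB1 as lower with library size only and with only the groups compared. In HS 29 of the 58 were higher and 8 lower (15 and 12 by library size only), against 28.1% and 26.7% of all genes, and in HS+REC 18 and 11, against 26.8% and 27.3%. By list, the higher and lower genes in HS were 8 and 1 of the BiP cofactors, 3 and 3 of the disulfide and lectin genes, 10 and 3 of the ERAD genes, 3 and 1 of the sensor partners and 5 and 0 of the PERK outputs. In HS+REC they were 5 and 2, 2 and 2, 6 and 4, 2 and 2, and 3 and 1. The PERK outputs had a median of -0.26 at 37 °C, of 0.24 in HS and of 0.097 in HS+REC. Of the cytosolic counterparts, HSPA8, HSP90AA1 and HSP90AB1 were higher in HS, by 0.42 (SE 0.073), 0.36 (SE 0.075) and 0.13 (SE 0.053), while HSPA1A, at 0.14 (SE 0.086), did not pass. In HS+REC HSPA8 and HSP90AA1 were higher, by 0.24 (SE 0.073) and 0.27 (SE 0.075), and HSP90AB1 and HSPA1A did not pass. HSP90AB1 passed without replicate 3 of HS+REC siLonp1 (adjusted p = 0.048), and HSPA1A passed as lower with 1 library left out (adjusted p = 0.045). The HSP90AB1 call in HS was lost with RLE factors, with library size only, without the filter and on leaving out any of 7 libraries, and the HSPA8 call in HS+REC without replicate 1 of HS+REC scramble. The interaction passed for 4 of the 58 with HS and for 4 with HS+REC, named here after their values were seen, where 0.475% of all genes were higher and 1.39% lower with HS, and 0.686% and 0.896% with HS+REC. With HS, CHAC1 was at 1.08 (SE 0.20), SESN2 at 0.84 (SE 0.16), ATF4 at 0.48 (SE 0.073) and TRAF2 at -0.49 (SE 0.12). With HS+REC, SESN2 was at 0.89 (SE 0.15), CEBPB at 0.87 (SE 0.22), HERPUD2 at 0.60 (SE 0.15) and TRIB3 at 0.50 (SE 0.10). The calls of CEBPB and HERPUD2 were lost with the replicate block, with only the groups compared and on leaving out any of 15 libraries each, and that of TRAF2 with the replicate block and on leaving out any of 9, whereas those of CHAC1, SESN2, ATF4 and TRIB3 held in each of these. For HERPUD2 this was a fall in scramble cells, from 4.62 to 3.51 CPM, beside 6.18 and 7.15 CPM in siLonp1 cells, where the change did not pass.

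The genes of the whole table whose levels over the 6 groups were most like those of the 3 most variable genes were found by the root mean square difference of group means on the log2 CPM scale, each centred on its mean. For HERPUD1 these were MIR503HG at 0.105, ANXA1 at 0.217 and LEAP2 at 0.229. For ERN1 they were STIP1 at 0.063, ZNF761 at 0.087 and HSPA4 at 0.099, and for XBP1 MUM1 at 0.045, HSPE1 at 0.084 and PTGES3 at 0.086. Among the 10 themselves the closest pair was ATF6 and PDIA4, at 0.071. Their group means spanned only 0.286 and 0.261, and the measure is not scaled to the range, so genes that change little lie close. XBP1 and ERN1 lay 0.297 apart, XBP1 and HERPUD1 0.392, and HSPA5 and HERPUD1 0.838. HSPA5, the usual reporter gene of the UPR, and HERPUD1 had unlike courses in these libraries.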

How the data were processed

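Per the labels and the study's methods, the authors prepared stranded mRNA libraries, mapped paired-end reads to hg38 by STAR 2.7.3a and assigned them to UCSC genes by featureCounts in R 3.6.3. The deposited values are raw counts per gene, with no normalization. The strand setting, the annotation release and the treatment of reads shared between genes are not given in the sources used here.

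The low-count filter required a CPM over 1 in 3 or more libraries and left 12832 of 26485 genes, the 10 genes included, which held 99.9% or more of each library. Counts were scaled by TMM (factors 0.934 to 1.06) and tested with edgeR 4.0.16 in R 4.3.3, by the quasi-likelihood test in 1 model over 18 libraries with a mean per group. A gene passed when its FDR (Benjamini-Hochberg, over all genes tested) was 0.05 or less. "Adjusted p" is this FDR. A fold change above 2 was counted separately. The common biological coefficient of variation was 0.0658, and fold changes used a prior count of 0.125. CPM per kb used the length of the Ensembl canonical transcript (GENCODE).

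Chi-square per degree of freedom between replicates was 3.62 to 27.5, above counting error in every pair, so all libraries were counted as separate. The study's methods name 3 independent biological replicates. Samples were grouped by their labels, and 0 columns lacked a sample. The 10 genes and the lists were chosen with earlier results of these data known. List genes are named by rule: in each list the 3 with the largest change among those that passed in HS scramble, in HS+REC scramble and in siLonp1 at 37 °C, and all 4 cytosolic counterparts. Alternatives were DESeq2 1.42.0, scaling by RLE or by library size alone, no low-count filter, fits restricted to the groups compared, a block for the replicate number, FDR 0.01, a fold change above 2, and each library left out. The test was checked on simulated counts with known changes.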

Additional observations from a re-analysis of the deposited data

Results flagged for a closer look

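The HS effect on HERPUD1 differed between the siRNA arms by 0.75 (SE 0.11, adjusted p = 0.00053) on the log2 scale, being 1.04 in siLonp1 and 0.30 in scramble cells, in the test of the interaction itself. The HS+REC effect differed by 0.75 (SE 0.11, adjusted p = 0.0014), being 2.45 and 1.70. All 3 siLonp1 libraries and all 3 scramble libraries were higher in HS, and in HS+REC, than any Ctrl library of the same arm. The 2 contrasts share the Ctrl libraries, in which HERPUD1 was 39.7 ± 4.18 CPM in siLonp1 and 68.7 ± 2.17 CPM in scramble cells, so the 2 values are not independent. Silencing of LONP1 also differed in depth between these conditions. The cause was not tested.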

How the results depend on the processing

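The rises of HERPUD1, ERN1 and XBP1 in HS+REC and of EIF2AK3 in HS, the fall of HSPA5 in HS and the lower HERPUD1 of siLonp1 cells at 37 °C passed the FDR limit in both arms where they apply, in every alternative fit and with each library left out. The smaller siLonp1 differences depended most on the setting. ERN1 had the fewest counts of the 10 genes, 303 in 1 Ctrl siLonp1 library, and the part of depth in its spread was not tested. RLE and library size only each moved the median of all genes by less than 0.1. For library size only the move was -0.074, -0.097 and -0.071 for siLonp1 in Ctrl, HS and HS+REC. That is not small beside the siLonp1 differences, which for HSP90B1 were 0.14, 0.24 and 0.15.

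Counts of the 10 genes that passed are given first, then those of the 58 pathway genes. Apart from the 2-fold shares given above, shares of all genes under these settings, or with a library left out, are not given. These counts therefore show only how the calls moved, and do not set the genes apart from others. With the fold change limit of 2 they were 0 and 6 for HS in scramble, 1 and 7 for HS in siLonp1, 2 and 5 for HS+REC against HS in scramble, 2 and 4 in siLonp1, 3 and 7 for HS+REC in scramble, 3 and 8 in siLonp1, 0 and 1 for siLonp1 in Ctrl, 0 and 2 in HS, 0 and 4 in HS+REC, 0 and 1 for the interaction with HS, and 0 and 0 for that with HS+REC. At FDR 0.01, 2 of the 10 and 20 of the 58 passed for siLonp1 in Ctrl, 2 and 22 in HS, 1 of the 10 in HS+REC, and 2 of the 58 for the interaction with HS+REC. With library size only, 3 of the 10 passed for siLonp1 in Ctrl and 2 in HS+REC, and the split of higher and lower pathway genes became 16 and 7 for HS+REC against HS in siLonp1, 14 and 18 for HS+REC in scramble and 15 and 12 for siLonp1 in HS, from 17 and 4, 15 and 11, and 29 and 8. With only the groups compared, 1 of the 10 passed for siLonp1 in HS+REC, and 9 and 2 of the 58 for the interactions with HS and HS+REC. Without the filter, 11 of the 58 passed for the interaction with HS and 2 of the 10 for that with HS+REC, as did 2 with DESeq2. The cause of these moves was not tested.

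Samples with the same replicate number did not vary together throughout. Of 45 such pairs, 10 had a correlation of deviations over 0.1 (range -0.38 to 0.46). In 6 of 18 libraries the best correlation was with their own number. HS and HS+REC libraries of the same arm and number correlated at -0.16 to 0.27. HS scramble and HS siLonp1 correlated at 0.25 for replicate 2, and at -0.21 and -0.17 for replicates 1 and 3. This check cannot exclude batches that do not follow the numbers. With the replicate block, 4507 genes passed for HS in scramble against 4615, 2 of the 58 pathway genes passed for the interaction with HS+REC against 4, and HSP90B1 for siLonp1 in Ctrl no longer passed.

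Leaving out each library gave 4 to 5 of the 10 genes for HS in scramble, 5 to 6 in siLonp1, 4 to 5 and 4 to 4 for HS+REC against HS, 4 to 6 and 6 to 7 for HS+REC, 3 to 6 for siLonp1 in Ctrl, 2 to 6 in HS, 1 to 6 in HS+REC, and 1 to 1 and 1 to 2 for the interactions, the last also with 2 to 6 of the 58. The counts that moved by over 1.5 times were 3 in Ctrl without replicate 3 of scramble, 2 in HS without replicate 2 of either arm, 3 in HS+REC without replicate 1 of scramble, 1 there without replicate 3 of scramble or 2 of siLonp1, and 2 for the last interaction without replicate 2 of HS+REC scramble or 3 of HS+REC siLonp1. For the 58, leaving out any of 13 libraries gave 2.

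Small log2 values near 0 that did not pass changed sign. With library size only these were CALR -0.033 for HS in siLonp1, ATF6 -0.049, PDIA4 -0.048, CALR -0.026 and LONP1 -0.029 for HS+REC against HS in scramble, ATF6 -0.0021 for the same in siLonp1, HSP90AA1 -0.0048 for siLonp1 in Ctrl, PDIA4 -0.014 in HS, and ERN1 -0.029, SDF2L1 -0.067 and PDIA4 -0.034 in HS+REC. ATF6 for HS+REC against HS in scramble was -0.00033 with RLE, -0.00042 without the filter, -0.00055 with DESeq2 and -0.0018 with only the groups compared. Without the filter SDF2L1 was -0.00033 for siLonp1 in HS+REC and HSP90B1 -0.013 for the interaction with HS+REC. With single libraries left out the ranges that crossed 0 were as follows. For HS in scramble these were HSP90B1 -0.042 to 0.0093, XBP1 -0.00066 to 0.066, SDF2L1 -0.014 to 0.11 and LONP1 -0.088 to 0.037. For HS in siLonp1 these were SDF2L1 -0.076 to 0.040 and CALR -0.012 to 0.046. For HS+REC against HS in scramble these were ATF6 -0.069 to 0.073, EIF2AK3 -0.051 to 0.024, SDF2L1 -0.24 to 0.061, PDIA4 -0.022 to 0.029, CALR -0.012 to 0.066 and LONP1 -0.043 to 0.10. For HS+REC against HS in siLonp1 these were HSP90B1 -0.0043 to 0.087, ATF6 -0.020 to 0.048 and EIF2AK3 -0.12 to 0.052. For HS+REC in scramble these were SDF2L1 -0.21 to 0.10 and LONP1 -0.065 to 0.052. For siLonp1 in HS+REC these were ERN1 -0.055 to 0.20, HERPUD1 -0.11 to 0.031, SDF2L1 -0.11 to 0.20 and HSPA1A -0.19 to 0.057. For the interaction with HS these were SDF2L1 -0.14 to 0.0037. For the interaction with HS+REC these were HSP90B1 -0.053 to 0.046, ERN1 -0.25 to 0.037, ATF6 -0.087 to 0.055, EIF2AK3 -0.030 to 0.15 and CALR -0.10 to 0.016.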
